A study of Mus musculus with 4 samples.

Results

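Transcripts of the tumour suppressor p53 (Trp53), of its inhibitors Mdm2 and Mdm4 and of 29 genes that p53 is known to activate were read in mouse leukaemia-type cells. These 32 genes were taken by symbol from the 55426 genes in the deposited tables, and each symbol was found once. Both groups of cells were transformed haematopoietic stem and progenitor cells from lineage-negative mouse bone marrow, kept in serum-containing culture. MLL-ENL dYEATS cells (∆YEATS in the labels) carried an MLL-ENL fusion with only ENL residues 372 to 559, so the YEATS domain, a reader of acylated histone lysines, was absent. MLL-ENL cells carried the MLL-ENL fusion, and the sources used here do not give its ENL residues. Each group had 2 libraries, and the design text of the series describes them as technical replicates. All cells thus carried a fusion, no untransformed cells were compared, and genotype and cell line cannot be told apart. The p-values measure only the spread between these libraries.

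The p53 protein is a transcription factor that is kept low by the ubiquitin ligase MDM2 and its partner MDM4, and Mdm2 is itself a target of p53, which closes a feedback loop. When DNA is damaged or growth is disturbed, p53 is stabilised mainly at the protein level and raises genes that halt the cell cycle, trigger cell death, repair DNA or adjust metabolism. In leukaemias driven by MLL fusions the p53 gene is usually intact.

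Total expected counts were between 27812855 and 28814798 per library. Values below are CPM, a gene's count scaled to library size (TMM), and a log2 fold change is MLL-ENL dYEATS minus MLL-ENL with its standard error (SE). The 2 MLL-ENL dYEATS libraries were close to each other and the 2 MLL-ENL libraries were not. Over the 29 members that passed the low-count filter, the SD of the log2 ratio of replicate 1 to replicate 2 was 0.204 in the MLL-ENL dYEATS pair and 0.415 in the MLL-ENL pair. Phlda3 (2 and 1 counts) and Plk2 (11 and 14 counts) widened the SD of the MLL-ENL dYEATS pair. For the 27 members with at least 50 counts in each pair, its log2 ratios ran only from -0.129 to 0.137. Those of the MLL-ENL pair ran from -0.892 to 0.807. Of progenitor markers, Ptprc was not called, Spi1 rose in the MLL-ENL dYEATS libraries (log2 fold change 0.46, adjusted p = 0.0404), Kit fell in them (log2 fold change -4.17, adjusted p = 0.000681), and Cd34, Flt3 and Ly6a had 6 counts or fewer in any library. The part of the changes of Kit and Spi1 in the results below was not tested. Markers of B cells, T cells and stroma summed to at most 0.635 CPM per library, and those of erythroid cells to between 1.07 and 1.34 CPM.

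Of the 29 members tested, 8 were called higher and 1 lower in MLL-ENL dYEATS cells, which is 27.6% and 3.45% of them. A call is an adjusted p under 0.05 over all genes in edgeR's quasi-likelihood test. Among all 13245 genes tested, 7.04% were called higher and 9.84% lower. The members were chosen with earlier results of these data known, so this contrast is not a test of the list. In the lists of other p53 genes described below, 39 were tested, and 7.69% were called higher and 5.13% lower. The members called higher were Cdkn1a, Plk3, Tnfrsf10b, Trp53inp1, Ercc5, Ak1, Dglucy and Zmat3, and the member called lower was Phlda3. The median log2 fold change of the tested members was 0.33, against -0.01 for all genes tested. In 17 members both MLL-ENL dYEATS libraries lay above both MLL-ENL libraries and in 5 both lay below, against 32.1% and 32.2% of all genes. The other 7 overlapped. Eda2r, Perp and Zfp365 had 0 or 1 count in each library and were not tested. Phlda3 passed the filter only through its MLL-ENL libraries, with 51 and 47 counts there.

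**Figure D1:**
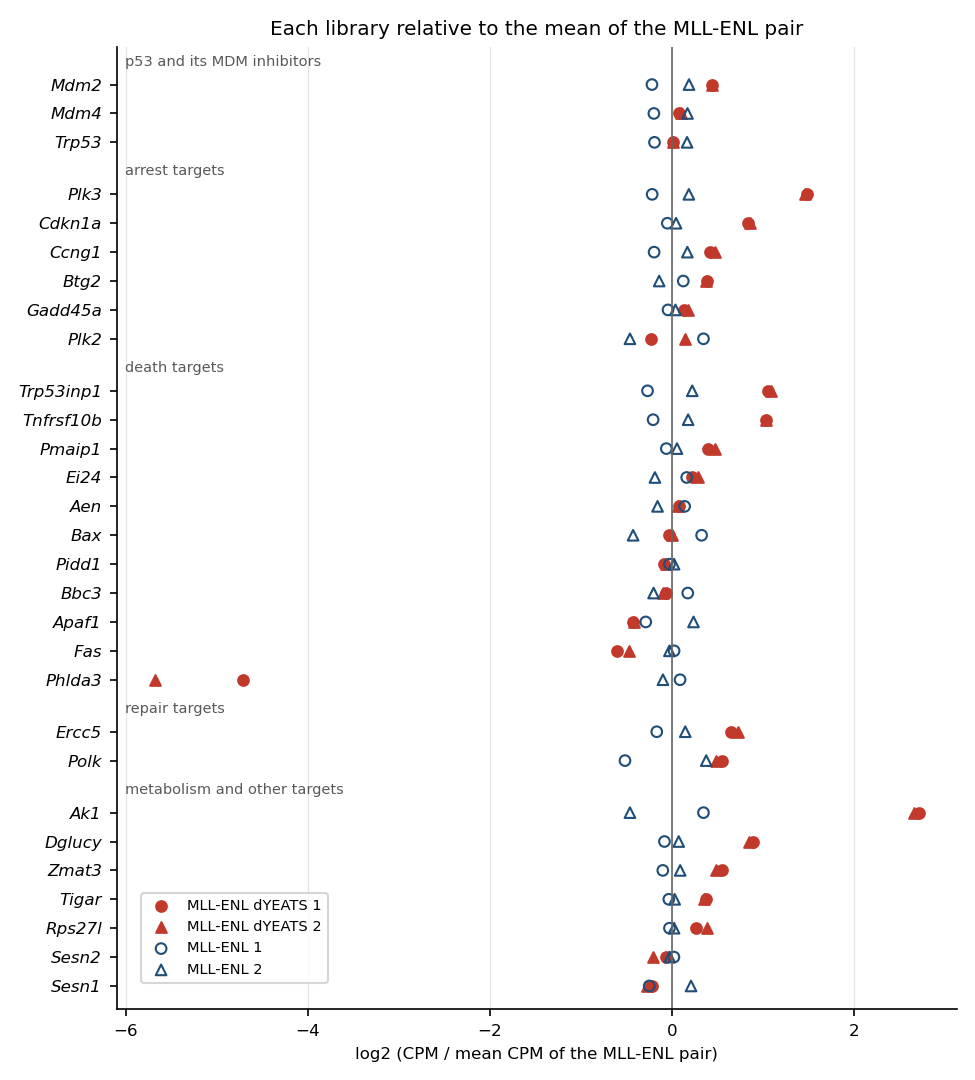
Each tested member in each library, as log2 of its CPM over the mean CPM of the MLL-ENL pair, so that 0 is that mean (filled red, MLL-ENL dYEATS; open blue, MLL-ENL; circles, replicate 1; triangles, replicate 2). The MLL-ENL dYEATS points of Ak1, Plk3, Trp53inp1 and Tnfrsf10b lie furthest to the right and those of Phlda3 furthest to the left. The MLL-ENL points of Polk, Ak1, Plk2 and Bax are spread widely.

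None of Trp53 and the genes of its 2 inhibitors was called by edgeR, DESeq2 or limma on all 4 libraries, and 1 of the 3, Mdm2, had an unadjusted p under 0.05 with edgeR. Trp53, on chromosome 11 from 69580359 to 69591873 (GRCm38), had 99.4 and 99.2 CPM in MLL-ENL dYEATS libraries and 86.2 and 110.5 CPM in MLL-ENL libraries. The MLL-ENL dYEATS values thus stood between the MLL-ENL values (log2 fold change 0.01 ± 0.15 SE, adjusted p = 0.959). Mdm2 had 114 and 113 CPM in MLL-ENL dYEATS libraries, against 71.7 and 95.1 CPM in MLL-ENL libraries. Both MLL-ENL dYEATS values of Mdm2 lay above both others, as in 32.1% of all genes. The gap was not beyond the spread by the test (0.44 ± 0.16 SE, adjusted p = 0.123). Mdm4, which masks the activation domain of p53, had 139.6 and 142 CPM in MLL-ENL dYEATS libraries and 115 and 149 CPM in MLL-ENL libraries, with overlap (0.09 ± 0.15 SE, adjusted p = 0.717). The p53 relatives Trp63 and Trp73 had at most 1 count in any library. Wrap53, the neighbour that starts next to Trp53 on the opposite strand, was at 12.0 and 12.2 CPM in MLL-ENL dYEATS libraries and 13.1 and 10.9 CPM in MLL-ENL libraries (adjusted p = 0.965).

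Among the 6 arrest targets 2 rose (33.3%) and none fell, beside 7.04% higher and 9.84% lower among all genes. The median log2 fold change of the list was 0.42. Cdkn1a, which encodes the cyclin-dependent kinase inhibitor p21, had 77.7 and 78.5 CPM in MLL-ENL dYEATS libraries, against 41.9 and 44.8 CPM in MLL-ENL libraries. That is 1.8 times as much, with both MLL-ENL dYEATS libraries well above both others (log2 fold change 0.85 ± 0.11 SE, adjusted p = 0.00672). Cdkn1a was no longer called when either MLL-ENL dYEATS library was left out (adjusted p = 0.0674 without replicate 1 and 0.0758 without replicate 2), at a nearly equal log2 fold change of 0.85 and 0.84. Plk3, a stress-activated polo-like kinase, had 12.5 and 12.3 CPM in MLL-ENL dYEATS libraries and 3.85 and 5.09 CPM in MLL-ENL libraries (1.47 ± 0.18 SE, adjusted p = 0.00591). Plk3 was the arrest target with the largest fold change, and it stayed called with any 1 library left out (adjusted p from 8.55e-11 to 0.000541).

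Its relative Plk2 had few reads, with 9 to 15 counts per library (adjusted p = 0.978). Ccng1, the gene of cyclin G1, had 322 and 336 CPM in MLL-ENL dYEATS libraries, against 211 and 272 CPM in MLL-ENL libraries (0.45 ± 0.15 SE, adjusted p = 0.104). Btg2, an antiproliferative gene, had 6.40 and 6.35 CPM in MLL-ENL dYEATS libraries and 5.34 and 4.45 CPM in MLL-ENL libraries (0.38 ± 0.17 SE, adjusted p = 0.194). Gadd45a, which acts in both arrest and repair, had 34.9 and 36.0 CPM in MLL-ENL dYEATS libraries and 30.8 and 32.6 CPM in MLL-ENL libraries (0.16 ± 0.11 SE, adjusted p = 0.374). In these 3 genes both MLL-ENL dYEATS values lay above both others, as in 32.1% of all genes, and none passed the test.

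p53 binds a site made of a pair of adjacent half-sites, and the promoter windows of the members were searched for it. RefSeq windows (GRCm38.p6) of 300 bases, 250 before and 50 after a start, were found for 27 members. The p53 half-site reads the same on both strands. It stood in at least 1 window of 11 of the 27 members, against 8.36% of all 32851 windows and 9.55% of all genes with a window. A full site, taken as 20 unbroken bases with at most 1 mismatch, stood in windows of 3 members (Cdkn1a, Ccng1 and Rps27l). Among all genes it stood in 29 of the 27025 with a window, or 0.107%. Pairs of half-sites with bases between them were not counted as full sites. Of the 5 members called higher that have a window only Cdkn1a held a half-site, and 10 of the 19 members not called did. Known p53 sites often lie outside such short windows, so a window without a match says nothing of the gene elsewhere. The windows of 4 genes with a match are printed for the site, and those of Plk3 and Phlda3 because both were called and held no whole half-site. The last 8 bases of the Phlda3 window match the start of a half-site, and the 2 bases after the window in the GENCODE M21 transcript do not go on with it. Capitals mark half-sites and full sites. In Cdkn1a the full site starts 51 bases before the upstream one of 2 annotated starts, which lie 2790 bases apart.
Cdkn1a (chr17:29090729-29091028, plus strand): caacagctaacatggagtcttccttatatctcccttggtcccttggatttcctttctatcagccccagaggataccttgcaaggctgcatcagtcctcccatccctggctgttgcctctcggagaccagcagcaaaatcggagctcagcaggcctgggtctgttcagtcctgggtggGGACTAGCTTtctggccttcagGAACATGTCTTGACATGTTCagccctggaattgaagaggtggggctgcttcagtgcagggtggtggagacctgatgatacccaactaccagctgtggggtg
Ccng1 (chr11:40755237-40755536, minus strand): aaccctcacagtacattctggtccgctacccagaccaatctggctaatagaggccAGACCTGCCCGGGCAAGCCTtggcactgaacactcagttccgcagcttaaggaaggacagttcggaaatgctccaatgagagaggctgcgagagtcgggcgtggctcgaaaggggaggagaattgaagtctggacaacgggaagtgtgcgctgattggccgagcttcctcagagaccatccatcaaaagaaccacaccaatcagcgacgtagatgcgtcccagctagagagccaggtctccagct
Rps27l (chr9:66946163-66946462, plus strand): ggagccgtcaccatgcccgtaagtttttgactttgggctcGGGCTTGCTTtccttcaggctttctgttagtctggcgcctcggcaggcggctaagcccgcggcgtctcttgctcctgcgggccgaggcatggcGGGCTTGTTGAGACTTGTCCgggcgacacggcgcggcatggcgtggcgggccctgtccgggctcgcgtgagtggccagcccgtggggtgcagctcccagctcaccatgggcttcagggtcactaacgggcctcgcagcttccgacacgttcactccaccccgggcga
Mdm2 (chr10:117710709-117711008, minus strand): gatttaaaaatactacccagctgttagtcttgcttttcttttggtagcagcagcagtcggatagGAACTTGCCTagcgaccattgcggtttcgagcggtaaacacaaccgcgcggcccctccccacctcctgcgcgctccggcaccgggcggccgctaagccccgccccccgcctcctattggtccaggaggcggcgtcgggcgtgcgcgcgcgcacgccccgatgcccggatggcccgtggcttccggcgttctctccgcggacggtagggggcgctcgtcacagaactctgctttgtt
Plk3 (chr4:117133914-117134213, minus strand): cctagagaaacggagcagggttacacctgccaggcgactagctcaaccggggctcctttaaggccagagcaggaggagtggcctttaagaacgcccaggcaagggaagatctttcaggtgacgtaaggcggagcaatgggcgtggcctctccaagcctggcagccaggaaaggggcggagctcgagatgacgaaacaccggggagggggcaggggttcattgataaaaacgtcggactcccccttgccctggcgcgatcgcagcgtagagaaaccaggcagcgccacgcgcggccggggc
Phlda3 (chr1:135765835-135766134, plus strand): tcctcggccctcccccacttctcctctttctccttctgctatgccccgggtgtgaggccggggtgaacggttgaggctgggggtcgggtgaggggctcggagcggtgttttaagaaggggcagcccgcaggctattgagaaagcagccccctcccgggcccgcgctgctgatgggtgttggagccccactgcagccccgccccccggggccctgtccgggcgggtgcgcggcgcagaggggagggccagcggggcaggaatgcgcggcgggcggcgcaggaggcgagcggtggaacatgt

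Of 11 death targets tested, 2 rose (18.2%), 1 fell (9.09%) and 8 were not called, beside 7.04% higher and 9.84% lower among all genes. The gene that fell, Phlda3, passed the filter only through its MLL-ENL libraries. The median log2 fold change of the list was -0.01, against -0.01 for all genes tested. Tnfrsf10b, the mouse death receptor for the ligand TRAIL, had 13.3 and 13.3 CPM in MLL-ENL dYEATS libraries, against 5.64 and 7.36 CPM in MLL-ENL libraries. It was 2.04 times as high in the MLL-ENL dYEATS pair (log2 fold change 1.03 ± 0.17 SE, adjusted p = 0.0154). Trp53inp1, a nuclear p53 cofactor that promotes cell death and autophagy, had 35.0 and 35.8 CPM in MLL-ENL dYEATS libraries and 14.0 and 19.6 CPM in MLL-ENL libraries (1.08 ± 0.18 SE, adjusted p = 0.0166). Both kept their call with any 1 library left out and lost it with limma on log2 FPKM (adjusted p from 0.058 to 0.139 for Tnfrsf10b and from 0.0504 to 0.137 for Trp53inp1).

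Phlda3, whose product holds back the survival kinase AKT, was the 1 member called lower. It had 2 and 1 counts in MLL-ENL dYEATS libraries and 51 and 47 counts in MLL-ENL libraries. The ratio of the summed, scaled counts was 0.029 (95% interval of counting error 0.00587 to 0.0872). Even in the MLL-ENL libraries the level was low, at 1.90 and 1.67 CPM, and the test gave an adjusted p of 0.00175. The fitted log2 fold change was -5.00 ± 0.42 SE, and on log2(FPKM + 1) it was -1.23. The SE of 0.42 comes from the F statistic and understates the error at 2 and 1 counts, as the wider counting interval shows.

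Fas, the receptor of Fas ligand, had 3.54 and 3.87 CPM in MLL-ENL dYEATS libraries, against 5.45 and 5.26 CPM in MLL-ENL libraries. Both MLL-ENL dYEATS values lay below both others, as in 32.2% of all genes. The lower level did not pass the test (-0.53 ± 0.17 SE, adjusted p = 0.093). Of the receptors in the list, Tnfrsf10b rose, Fas was not called, and Eda2r, a receptor of the ligand EDA-A2, was at or near 0.

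The BCL2-family genes, which act at mitochondria, were not called. Pmaip1 (Noxa) came nearest, with 128 and 135 CPM in MLL-ENL dYEATS libraries and 93.4 and 101 CPM in MLL-ENL libraries (0.43 ± 0.11 SE, adjusted p = 0.0542). Bbc3 (Puma) had 10.8 and 10.5 CPM in MLL-ENL dYEATS libraries and 12.7 and 9.82 CPM in MLL-ENL libraries, with overlap (-0.08 ± 0.17 SE, adjusted p = 0.773). Bax, the pore-forming executioner, had 104 and 106 CPM in MLL-ENL dYEATS libraries and 133 and 78.8 CPM in MLL-ENL libraries (-0.01 ± 0.25 SE, adjusted p = 0.978). The MLL-ENL dYEATS values of Bax lay between the MLL-ENL values.

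Downstream of the mitochondria, Apaf1, the scaffold of the apoptosome, had 84.4 and 84.9 CPM in MLL-ENL dYEATS libraries, against 93.0 and 134 CPM in MLL-ENL libraries (-0.42 ± 0.19 SE, adjusted p = 0.191). Pidd1, which forms a caspase-2 activating complex, differed little, with 21.7 and 22.1 CPM in MLL-ENL dYEATS libraries and 22.6 and 23.4 CPM in MLL-ENL libraries (adjusted p = 0.685). Ei24, a membrane protein of the endoplasmic reticulum, had 91.2 and 96.1 CPM in MLL-ENL dYEATS libraries and 87.9 and 69.0 CPM in MLL-ENL libraries (adjusted p = 0.296). The nuclease gene Aen had 97.3 and 96.5 CPM in MLL-ENL dYEATS libraries and 102 and 82.8 CPM in MLL-ENL libraries, with overlap (adjusted p = 0.756). Perp, a membrane protein of desmosomes and cell death, had no count in any library, which allows up to between 0.102 and 0.112 CPM per library (3 counts).

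Beside 7.04% higher and 9.84% lower among all genes, none of the 2 repair targets tested fell and 1 rose, Ercc5. This endonuclease gene of nucleotide excision repair had 17.4 and 18.4 CPM in MLL-ENL dYEATS libraries and 9.93 and 12.3 CPM in MLL-ENL libraries (log2 fold change 0.68 ± 0.15 SE, adjusted p = 0.0361). Leaving out either MLL-ENL dYEATS library cost the call of Ercc5 (adjusted p = 0.161 without replicate 1 and 0.247 without replicate 2). Polk, a translesion DNA polymerase, had 13.8 and 13.3 CPM in MLL-ENL dYEATS libraries, against 6.61 and 12.3 CPM in MLL-ENL libraries. The MLL-ENL pair was far apart for Polk, and the gene was not called (0.52 ± 0.29 SE, adjusted p = 0.28). Zfp365, linked to genome stability, had 0 or 1 count per library.

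Of the 7 targets with roles in metabolism or RNA, 3 rose (42.9%) and none fell, beside 7.04% higher and 9.84% lower among all genes. Their median log2 fold change was 0.37. Ak1, a cytosolic adenylate kinase, had 7.70 and 7.40 CPM in MLL-ENL dYEATS libraries, against 1.49 and 0.853 CPM in MLL-ENL libraries. This was the largest increase among the members, at 6.43-fold (2.69 ± 0.28 SE, adjusted p = 0.00341), and 1 MLL-ENL library moved it, from 2.33 without MLL-ENL replicate 2 to 3.14 without MLL-ENL replicate 1. Dglucy, the mitochondrial D-glutamate cyclase, had 49.7 and 48.4 CPM in MLL-ENL dYEATS libraries and 25.4 and 28.3 CPM in MLL-ENL libraries (0.87 ± 0.12 SE, adjusted p = 0.0082). Its call ended without MLL-ENL dYEATS replicate 1 (adjusted p = 0.0639) and in the 3 limma fits on log2 FPKM (adjusted p from 0.054 to 0.136). Zmat3, an RNA-binding splicing regulator, had 31.3 and 29.9 CPM in MLL-ENL dYEATS libraries and 19.9 and 22.8 CPM in MLL-ENL libraries (0.52 ± 0.12 SE, adjusted p = 0.0457). Zmat3 was the call nearest to the threshold and held in 5 of 14 alternatives (adjusted p from 3.03e-07 to 0.494).

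Tigar, which lowers glycolytic flux, and Rps27l, a ribosomal protein paralogue, had higher values in both MLL-ENL dYEATS libraries, as did 32.1% of all genes. Neither was called. Tigar had 69.0 and 67.7 CPM in MLL-ENL dYEATS libraries and 51.8 and 54.2 CPM in MLL-ENL libraries (0.37 ± 0.11 SE, adjusted p = 0.0739). Rps27l had 49.5 and 54.1 CPM in MLL-ENL dYEATS libraries and 40.5 and 42.0 CPM in MLL-ENL libraries (0.33 ± 0.11 SE, adjusted p = 0.111), and reads it shares with its paralogue Rps27 may have been divided between them. The sestrins, which restrain mTORC1 under stress, were on the other side of 0. Sesn1 had 23.9 and 22.9 CPM in MLL-ENL dYEATS libraries and 23.3 and 32.04 CPM in MLL-ENL libraries (adjusted p = 0.397). Sesn2 had 32.7 and 29.8 CPM in MLL-ENL dYEATS libraries and 34.8 and 33.7 CPM in MLL-ENL libraries (adjusted p = 0.478).

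**Figure D2:**
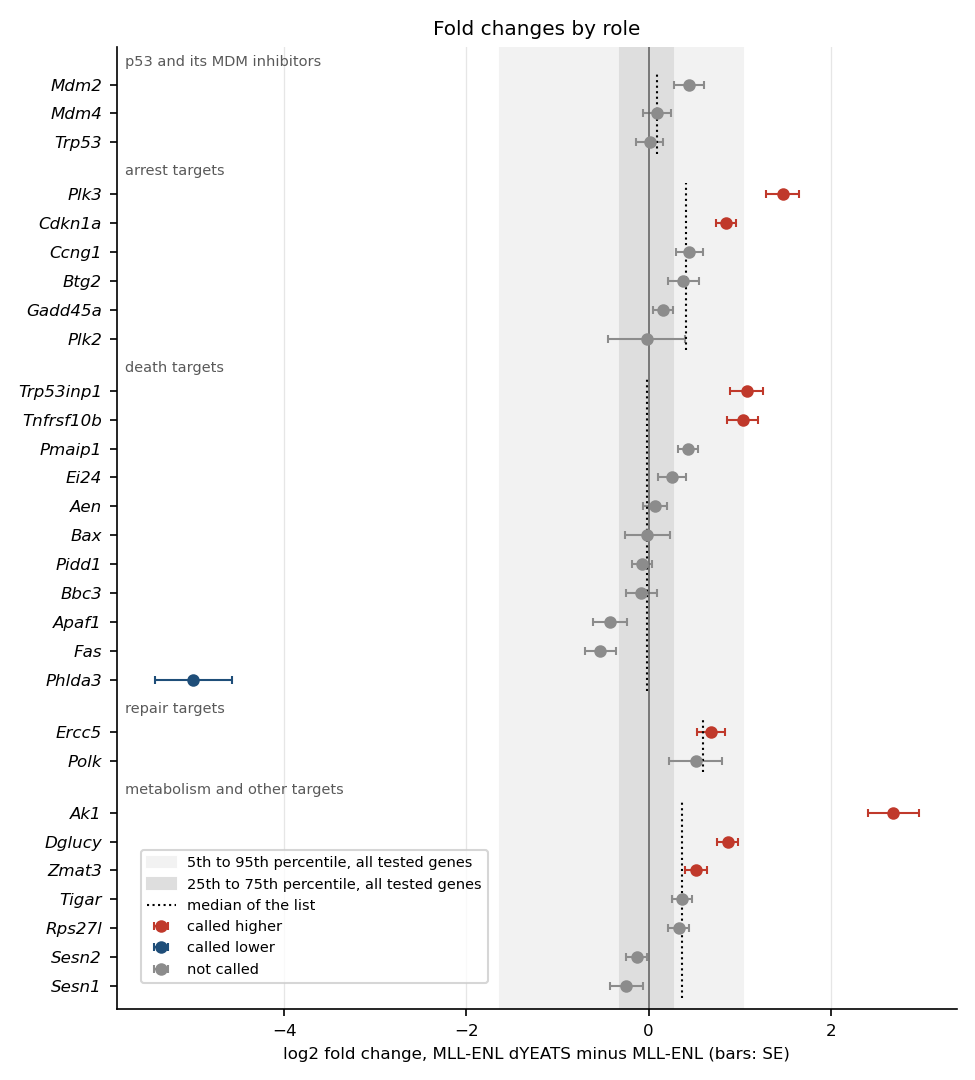
Log2 fold change (MLL-ENL dYEATS minus MLL-ENL) of the 29 tested members by role, with bars of SE, the median of each list (dotted) and percentile bands of all tested genes in grey. Arrest, repair and metabolic targets sit mostly right of 0, whereas death targets lie on both sides. Among death targets the highest is Trp53inp1 at 1.08 and the lowest Phlda3 at -5.00, which passed the filter only through its MLL-ENL libraries. The next lowest is Fas at -0.53, not called. The bar of Phlda3 understates its error, as it had 2 and 1 counts in MLL-ENL dYEATS libraries.

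By role, 2 of 6 arrest, 3 of 11 death, 1 of 2 repair and 3 of 7 metabolic and other targets were called, and 0 of 3 genes of the p53 and MDM core, beside 7.04% higher and 9.84% lower among all genes. Values of both MLL-ENL dYEATS libraries exceeded both MLL-ENL values in 5 of 6 arrest targets, 2 of 2 repair targets and 5 of 7 metabolic and other targets, beside 32.1% of all genes. Among death targets this held for 4 of 11, and 4 of 11 had both MLL-ENL dYEATS values below, which at 36.4% each way is near the shares over all genes (32.1% above and 32.2% below). Those below include Phlda3, which passed the filter only through its MLL-ENL libraries. The roles were assigned with earlier results of these data known, and the difference between roles was not tested. In bulk RNA, fewer cells that express a gene and less of its RNA per cell cannot be told apart, which holds for each value here.

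Per length, members differed in level by several orders of magnitude. On the FPKM scale Rps27l and Bax were the highest, with means of 244 and 179 FPKM in the MLL-ENL dYEATS pair and 187 and 172 FPKM in the MLL-ENL pair. Ccng1 followed with 104 FPKM in the MLL-ENL dYEATS pair and 73.8 FPKM in the MLL-ENL pair, then Trp53 with 67.3 FPKM in the MLL-ENL dYEATS pair and 64.5 FPKM in the MLL-ENL pair. Cdkn1a averaged 53.6 FPKM in the MLL-ENL dYEATS pair and 28.1 FPKM in the MLL-ENL pair. Most other members called higher were at low levels in MLL-ENL dYEATS cells, namely Ercc5 at 6.70, Plk3 at 6.01, Ak1 at 5.17, Tnfrsf10b at 4.82 and Zmat3 at 4.20 FPKM.

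**Figure D3:**
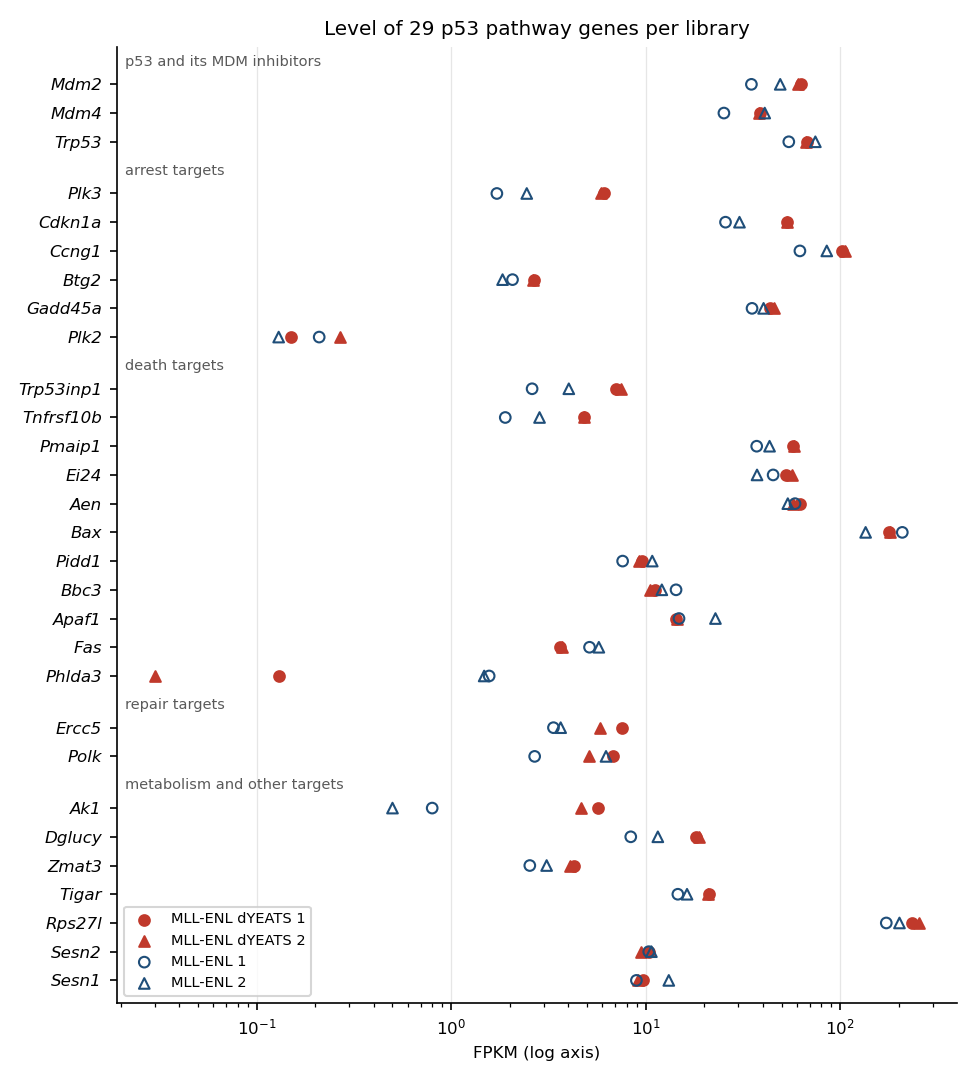
FPKM of the 29 tested members in each library on a log axis (filled red, MLL-ENL dYEATS; open blue, MLL-ENL; circles, replicate 1; triangles, replicate 2). Rps27l, Bax and Ccng1 are at the high end, Plk2 and, in MLL-ENL dYEATS libraries, Phlda3 at the low end.

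How many members were called depended on the MLL-ENL pair. Over 27 members with at least 50 counts in each pair, replicate 1 over replicate 2 gave log2 ratios that ran from -0.129 to 0.137 in the MLL-ENL dYEATS pair and from -0.892 to 0.807 in the MLL-ENL pair. Without MLL-ENL replicate 1, 17 members were called higher and 5 lower, against 26.9% and 27.7% of all genes. Leaving out replicate 2 instead again gave 17 and 5 members, against 33.6% and 32.9%. In those fits 1 MLL-ENL library stands alone and is assumed to vary like the MLL-ENL dYEATS pair. In both, the log2 fold change was positive for Mdm2, Ccng1, Pmaip1, Tigar and Rps27l and negative for Fas, Apaf1 and Phlda3, among others in each direction. Trp53 and Bax changed sign between these fits. Trp53 had a log2 fold change of -0.16 once MLL-ENL replicate 1 was left out and of 0.20 once replicate 2 was, and Bax had 0.41 and -0.34 in these fits.

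Leaving out an MLL-ENL dYEATS library instead left the wide MLL-ENL pair to set the spread. Without MLL-ENL dYEATS replicate 1, 4 members were called higher and 1 lower, against 4.07% and 6.28% of all genes. Without MLL-ENL dYEATS replicate 2, 5 were called higher and 1 lower, against 4.0% and 6.16%. Ak1, Plk3, Tnfrsf10b, Trp53inp1 and Phlda3 were called in all 4 of these fits.

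**Figure D4:**
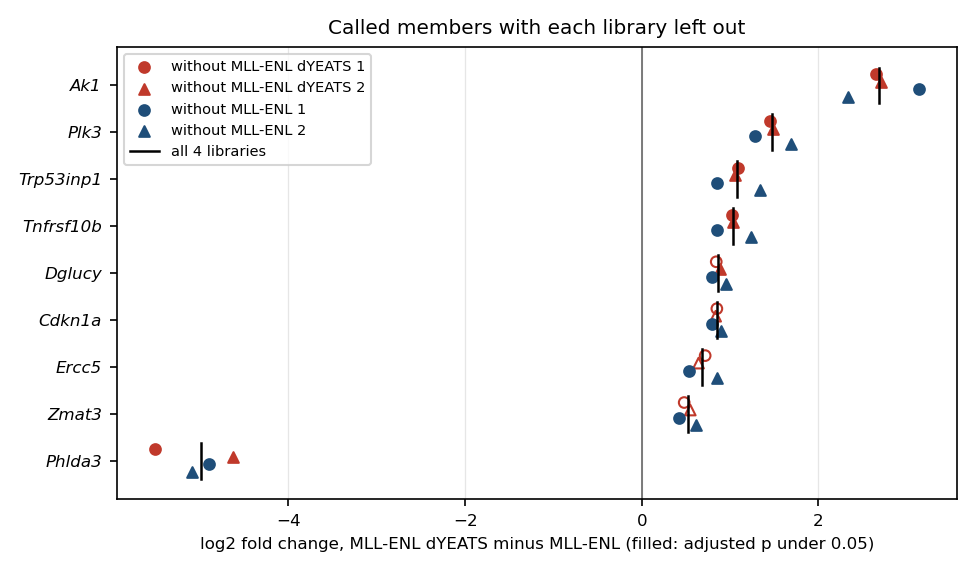
Log2 fold change (MLL-ENL dYEATS minus MLL-ENL) of the 9 called members with each library left out in turn (red, an MLL-ENL dYEATS library; blue, an MLL-ENL library; black bar, all 4 libraries; filled, adjusted p under 0.05). No point crosses 0, and open points mark calls lost for Dglucy, Cdkn1a, Ercc5 and Zmat3 without an MLL-ENL dYEATS library.

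Genes that act on p53, and targets beyond the members, were read from the same fit. Of 13 upstream activators 1 rose and none fell, and the 7.69% that rose is near the 7.04% of all genes. Hipk2, a kinase that phosphorylates p53, had 68.6 and 63.2 CPM in MLL-ENL dYEATS libraries, against 23.3 and 27.8 CPM in MLL-ENL libraries (log2 fold change 1.37 ± 0.14 SE, adjusted p = 0.00303). Cdkn2a, which encodes both the p16 and the ARF protein (ARF blocks MDM2), had 19.04 and 20.3 CPM in MLL-ENL dYEATS libraries and 15.5 and 9.03 CPM in MLL-ENL libraries (0.68 ± 0.26 SE, adjusted p = 0.138). The log2 fold change of Cdkn2a was 1.12 once MLL-ENL replicate 1 was left out (adjusted p = 4.97e-10) and 0.34 once replicate 2 was (adjusted p = 0.00187), and the gene was also called with the gene-length trend removed (adjusted p = 0.0295). Counts per gene do not separate the 2 Cdkn2a products. Of 7 further restrainers of p53 none was called by edgeR, DESeq2 or limma, and 1 had an unadjusted p under 0.05 with edgeR. Once MLL-ENL replicate 1 was left out 4 were called, beside 26.9% higher and 27.7% lower among all genes, and once replicate 2 was left out 6 were, beside 33.6% and 32.9%. The restrainer Ppm1d, a phosphatase gene that is itself a p53 target, was called in no alternative, with 28.1 and 28.3 CPM in MLL-ENL dYEATS libraries and 26.6 and 28.9 CPM in MLL-ENL libraries (adjusted p = 0.905).

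Of 18 further p53 targets tested 2 rose and 2 fell, which at 11.1% each way is near the 7.04% higher and 9.84% lower of all genes, and the median log2 fold change was 0.24. Ddit4, an mTORC1 inhibitor, had 17.6 and 16.5 CPM in MLL-ENL dYEATS libraries and 11.2 and 11.6 CPM in MLL-ENL libraries (0.58 ± 0.12 SE, adjusted p = 0.0313). Cd82, a tetraspanin, had 76.5 and 77.3 CPM in MLL-ENL dYEATS libraries and 53.4 and 50.6 CPM in MLL-ENL libraries (0.57 ± 0.11 SE, adjusted p = 0.0224). Xpc, a damage sensor of nucleotide excision repair, fell to 104 and 98.8 CPM in MLL-ENL dYEATS libraries, against 188 and 139 CPM in MLL-ENL libraries (-0.69 ± 0.17 SE, adjusted p = 0.048). The stress cytokine Gdf15 fell to 2.18 and 3.001 CPM in MLL-ENL dYEATS libraries, against 7.24 and 5.37 CPM in MLL-ENL libraries (-1.28 ± 0.26 SE, adjusted p = 0.0265). The repair genes Ercc5 and Xpc moved in opposite directions. Leaving out MLL-ENL dYEATS replicate 1, and likewise replicate 2, cost the calls of Ddit4 (adjusted p = 0.445 and 0.276), Cd82 (adjusted p = 0.386 and 0.405) and Xpc (adjusted p = 0.216 and 0.308). Gdf15 lost its call without replicate 1 (adjusted p = 0.0734).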

How the data were processed

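Poly(A)-selected RNA of 2 MLL-ENL dYEATS and 2 MLL-ENL libraries was sequenced, and groups were taken from sample titles. Per the submitters' processing notes reads were handled with RSEM 1.3.3, STAR 2.7.8a, FastQC 0.11.8 and cutadapt 2.3, on GRCm38, with no order or role given. The sources used here do not give settings, annotation release or strand. The authors deposited expected counts per gene, whole numbers as deposited, and FPKM, scaled by the authors for gene length and library size. Of 55426 genes 33627 were at 0 in all libraries.

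Genes were filtered with filterByExpr, scaled by TMM (factors 0.9528 to 1.02) and tested with edgeR 4.0.16 (R 4.3.3; quasi-likelihood F-test, legacy estimation), with Benjamini-Hochberg adjustment over 13245 genes and a threshold of 0.05. SE is the size of the log2 fold change divided by the square root of F. The test rests on 2 residual and 3.41 prior degrees of freedom. CPM is the count over the TMM-scaled library size. Floors are 3 counts per library, and floors and 95% intervals (exact, conditional binomial) cover counting error only. The test was also run on simulated counts with known fold changes and the same spread in both groups. That run cannot check how the test handles pairs of unequal spread. Over all genes, counts of the MLL-ENL dYEATS pair differed by more than sampling noise (median chi-square 1.42 times that of noise) and those of the MLL-ENL pair by more (14.1 times). Over the members the median chi-square of the MLL-ENL dYEATS pair was 0.363, no more than sampling noise gives, against 10.4 in the MLL-ENL pair. These member values were not divided by that of noise, so they are not on the scale of the multiples over all genes. Each library entered the fit, which does not make technical replicates independent.

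The members, their roles and the other lists were chosen with earlier results of these data known. All members may be named, and of other p53 lists the called genes and Cdkn2a, Ppm1d, Trp63, Trp73 and Wrap53. The 6 progenitor markers are named in addition, after their values were seen. Alternatives were RLE and total-count scaling, other filters, a replicate block, each library left out, DESeq2 1.42.0, limma 3.58.1 on log2 FPKM with pseudocounts of 1 and 0.1, and removal of a gene-length trend (lowess, span 0.3). Positions come from GENCODE M21, in which 7 members share exon bases with another gene (Cdkn1a, Plk3, Gadd45a, Bax, Ei24, Tigar and Dglucy), and no such other gene had over 22 counts in a library.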

Additional observations from a re-analysis of the deposited data

How the results depend on the processing

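With 2 libraries a group, 1 library often decides a call. The 9 called members kept their direction in all 14 alternatives that gave them a value (Phlda3 had none under the filter of 5 CPM). Ak1 and Phlda3 stayed called wherever tested, and Zmat3 lost its call in 9. Phlda3 passed the main filter only through its MLL-ENL libraries. Members called higher numbered 4, 3 and 1 with limma at pseudocounts of 1 and 0.1 and without a filter, and 4 to 17 with each library left out. Members called lower numbered 0 under the 5 CPM filter, 2 with the length trend removed and 1 to 5 with each library left out. Under those limma settings death targets called numbered 1 each time, metabolic and other targets 1 each time, and further targets 2, 1 and 0. Repair targets numbered 0 with limma at 0.1 or without a filter, and arrest targets and activators 0 with limma without a filter. With the length trend removed, death targets called numbered 5 (Pmaip1 and Apaf1 added), activators 2 and further targets 9. The replicate block gave 2 repair targets (Polk added), 3 activators (Cdkn2a added, adjusted p = 0.00142) and 8 further targets, and same-numbered libraries did not deviate together (correlation -0.0441). With each library left out, calls numbered 0 to 3 in the p53 and MDM core, 1 to 4 in arrest, 3 to 9 in death, 0 to 2 in repair, 1 to 6 in metabolic and other targets, 1 to 11 in activators, 0 to 6 in restrainers and 0 to 15 in further targets. Of all genes, 545 were higher and 805 lower under the 5 CPM filter, 551 and 735 with limma at 1, 389 and 431 without a filter, and 548 to 4598 and 844 to 4501 with each library left out. With limma at 0.1, 638 were higher and 855 lower, with the replicate block 1435 and 1698, and with the length trend removed 1437 and 1785. Of the 20 members not called, 8 changed sign in at least 1 alternative. Plk2 had log2 fold changes of 0.033 with library totals and 0.048, 0.19 and 0.048 with limma. Bax had 0.050 with library totals, 0.034 with the replicate block, 0.092 in each limma fit and 0.11 with the length trend removed. Pidd1 had 0.049, 0.056 and 0.049 with limma. Of other genes, Ppm1d had -0.012 with the length trend removed and Wrap53 -0.0036 under the 5 CPM filter. With each library left out the range was -0.16 to 0.20 for Trp53, -0.085 to 0.29 for Mdm4, -0.37 to 0.42 for Plk2, -0.34 to 0.41 for Bax, -0.26 to 0.12 for Bbc3, -0.070 to 0.23 for Aen, -0.46 to 0.0057 for Sesn1, -0.036 to 0.086 for Ppm1d and -0.11 to 0.15 for Wrap53. The cause was not tested. Depth limits Phlda3, Plk2, Eda2r, Perp and Zfp365, where few or no counts were read.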
